A study of Mus musculus with 5 samples.

Results

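The 9 genes described here, B2m, H2-K1, H2-D1, Tap1, Tap2, Tapbp, Psmb8, Psmb9 and Nlrc5, make the surface complex that shows peptides to CD8 T cells, load it or control its genes. They were found by exact gene symbol among the 42454 features of the count tables, and each symbol had 1 feature of that exact name. Their counts were read in 5 libraries of C57BL/6J mouse lung cells: unsorted cells of air-exposed and of hyperoxia-exposed mice at postnatal day 7 (pnd7) and at pnd60, and sorted cells of hyperoxia-exposed mice at pnd7. Newborn mice had breathed room air or more than 95% O2 for 3 days and then recovered in room air. The sorted cells came from the pooled lungs of 3 mice and were positive for C12FDG, a substrate that fluoresces in cells with active lysosomal β-galactosidase, which is used as a mark of senescent cells. Each condition had 1 library, so no test between conditions was possible. Intervals are 95% intervals that cover counting error only, not the spread between mice, and how many mice gave each unsorted library is not given in the sources used here.

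An MHC class I molecule is a heavy chain, such as the products of H2-K1 and H2-D1, held by the invariant light chain β2-microglobulin from B2m. Peptides are cut by the proteasome, in which Psmb8 and Psmb9 replace constitutive subunits to form the immunoproteasome. They are carried into the endoplasmic reticulum by Tap1 and Tap2 and loaded with the help of tapasin from Tapbp. Nlrc5 is the transactivator that acts on the promoters of class I genes, and interferons raise the whole set. In lung, circulating and resident leukocytes and endothelium carry more of these molecules than most epithelial and mesenchymal cells.

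To show which control elements lie beside the members, the RefSeq sequence upstream of 5 of them is shown (genome build GRCm38.p6). The capitals mark matches on either strand to the interferon response element (GAAA, any 2 bases, GAAA), the NF-kB consensus, CCAAT (the Y box) and TGACG (the core of the X2 box through which Nlrc5 acts). Each run is printed 5′ to 3′, that between Tap1 and Psmb9 in the direction of Tap1. Each ends at the base before the gene's start, except that of H2-K1, which has several starts. The H2-K1 run lies before an inner start, within the gene's annotated span of chr17:33996012-34000619.
B2m, chr2:122147537-122147686, plus strand: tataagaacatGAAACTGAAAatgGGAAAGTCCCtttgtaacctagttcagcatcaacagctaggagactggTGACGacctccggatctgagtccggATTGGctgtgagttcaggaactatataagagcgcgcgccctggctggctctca
Tap1 and Psmb9, chr17:34187331-34187555, plus strand: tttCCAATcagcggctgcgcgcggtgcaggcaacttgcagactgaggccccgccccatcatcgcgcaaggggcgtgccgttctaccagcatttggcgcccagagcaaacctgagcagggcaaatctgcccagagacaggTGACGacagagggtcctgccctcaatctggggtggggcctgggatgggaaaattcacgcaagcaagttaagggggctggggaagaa
H2-K1, chr17:34000348-34000547, minus strand: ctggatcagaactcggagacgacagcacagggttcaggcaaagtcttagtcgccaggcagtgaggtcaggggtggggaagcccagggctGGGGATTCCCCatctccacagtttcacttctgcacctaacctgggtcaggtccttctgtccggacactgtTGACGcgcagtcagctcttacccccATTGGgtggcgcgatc
H2-D1, chr17:35262894-35263093, plus strand: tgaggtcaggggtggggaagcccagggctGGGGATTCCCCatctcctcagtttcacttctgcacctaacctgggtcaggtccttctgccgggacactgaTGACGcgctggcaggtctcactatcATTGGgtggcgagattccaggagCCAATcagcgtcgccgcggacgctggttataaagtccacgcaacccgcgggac

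The exact pattern of the interferon element was matched in 1 of the 7 members with an entry in the promoter table, B2m, where it starts 139 bases before the gene. Of 32851 promoter windows of the same length, 3.44% held that pattern. Variants of the pattern were not searched for, so the other members, H2-K1 and H2-D1 among them, may still hold an interferon element. The NF-kB consensus was matched in 3 of the 7 members, B2m, H2-K1 and H2-D1, and in 8.46% of all windows. CCAAT was matched in 6 members and in 37.4% of windows, and TGACG in 5 members and in 20.8% of windows. Psmb8 had 0 matches to each of these patterns, and Tapbp matched CCAAT only. Tap1 and Psmb9 are read in opposite directions from starts with 225 bases between them, so the same CCAAT and TGACG lie upstream of both. There CCAAT starts 222 and TGACG 86 bases before Tap1, farther apart than the 53 and 78 bases before B2m. In that build 7 of the 9 genes lie in the H2 region of chromosome 17, from Tapbp at chr17:33919478-33929290 to H2-D1 at chr17:35263094-35267497. B2m lies at chr2:122147687-122153082 and Nlrc5 at chr8:94434335-94527272. Nlrc5 and Tap2 had no entry in the promoter table.

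With the study's limits on genes (700 to 8000) and mitochondrial counts (under 5%), the libraries held 493 to 4756 cells and 7880365 to 16648251 counts. The median per cell ran from 2168 counts in the air library at pnd60 to 15529 counts in the sorted library. Cells were placed in classes by their marker genes, and each class is named as resembling that type ("B cell-like"). In the sorted library 83.4% of cells were alveolar macrophage-like and 9.74% were macrophage-like cells with C1q genes, so its total is close to a macrophage profile. Among kept cells, 0 barcodes of the sorted library occurred in another library, and other pairs of libraries had 0 to 4 barcodes in common. Clusters that met no class held 10.2% of cells in the air library and 17.4% in the hyperoxia library at pnd7, and 0.203% to 3.25% in the others.

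Most of the 9 genes could not be read at their own symbol. B2m had 7512, 7134, 7959, 24232 and 29323 counts in the libraries of air pnd7, hyperoxia pnd7, sorted pnd7, air pnd60 and hyperoxia pnd60. Psmb9 had 578, 558, 221, 782 and 901 counts, and Nlrc5 had 59, 48, 8, 490 and 537 counts, in the same order. These 3 genes were counted in every library. H2-K1, a classical heavy chain expressed by nearly all nucleated cells, had only 23, 39, 37, 72 and 220 counts. The other heavy chain, H2-D1, and the loading factor Tapbp had 0 counts in all 5 libraries, Tap1 had 1 count in all, Tap2 had 9 and the immunoproteasome subunit Psmb8 had 22. A count of 0 allows up to 3 counts, which is 0.180 to 0.381 CPM in these libraries, CPM being a gene's counts scaled to a common total per library or class.

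**Figure D1:**
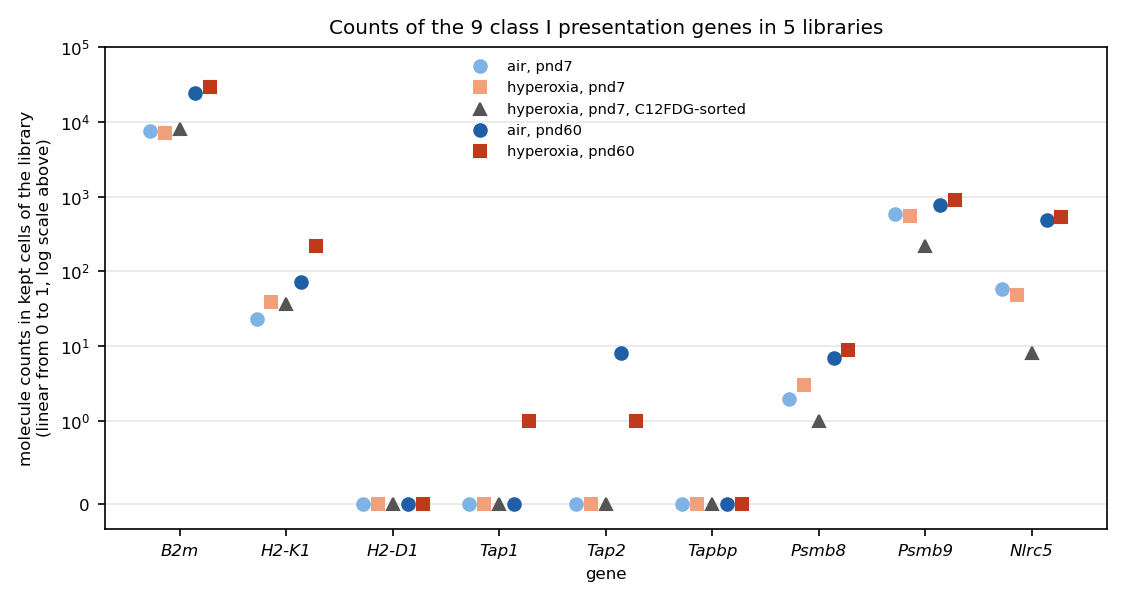
Counts of the 9 members in the 5 libraries; the horizontal axis lists the genes, the vertical axis is the number of counts (linear from 0 to 1, logarithmic above), and each point is 1 library. B2m lies between 7134 and 29323 counts, Psmb9 and Nlrc5 are counted in every library, and H2-D1 and Tapbp are at 0 throughout.

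All of the genes near 0 were among those that the feature list holds more than once, as was Psmb9, which was counted. Each of the 7 members in the H2 region has 3 further features with the same name and an added number, while B2m and Nlrc5 have none. Adding those copies gave 56 counts more for H2-K1, 6 for H2-D1, 10 for Tap2 and 13 for Psmb8, and 0 for Tap1, Tapbp and Psmb9. Among all protein-coding symbols, 71.7% of the 198 with 3 further copies had at most 10 counts over the 5 libraries, against 28.0% of the 20265 without a further copy. The class II genes H2-Aa and H2-Ab1, which are abundant in B cells and dendritic cells, had 3 to 41 and 2 to 40 counts per library. How reads that match several copies were treated is not given in the sources used here, and its part in these low counts was not tested. The levels of H2-K1, H2-D1, Tap1, Tap2, Tapbp and Psmb8 are therefore uncertain, and the pathway is described from B2m, Psmb9 and Nlrc5, with H2-K1 given as counted.

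B2m, the light chain of every class I molecule, was higher at pnd60 than at pnd7 in unsorted cells of either exposure. It stood at 451 CPM (441 to 462) in air and 525 CPM (513 to 538) in hyperoxia at pnd7, and at 1644 CPM (1623 to 1664) in air and 1774 CPM (1753 to 1794) in hyperoxia at pnd60. Both pnd60 libraries lay above both unsorted pnd7 libraries, and the sorted library was at 1010 CPM (988 to 1032). Its place relative to the pnd60 libraries depended on the scaling: over air at pnd7 the sorted library had a log2 ratio of 1.16 and air at pnd60 1.86 in CPM, but 1.70 and 1.63 with TMM factors and 1.88 and 1.66 with median of ratios size factors. B2m held 91.7% to 96.8% of the members' counts in each library, so the sum over the 9 genes, 491, 573, 1044, 1736 and 1874 CPM, is nearly that of B2m. With each cell thinned to 1000 counts, which left out 0 to 46 shallower cells per library, B2m was at 483, 668, 1032, 1959 and 2085 CPM, in the same order of libraries.

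Psmb9, the immunoproteasome subunit that takes the place of the constitutive β1 subunit, varied less. It stood at 34.7 CPM (31.9 to 37.7) in air and 41.1 CPM (37.8 to 44.7) in hyperoxia at pnd7, 28.0 CPM (24.5 to 32.0) in sorted cells, and 53.0 CPM (49.4 to 56.9) and 54.5 CPM (51.0 to 58.2) at pnd60. In CPM the sorted library was the lowest, but over air at pnd7 its log2 ratio was -0.31 in CPM, 0.23 with TMM factors and 0.41 with median of ratios size factors. That of air at pnd60 over air at pnd7 was 0.61, 0.38 and 0.41 in whole libraries and -0.29 with equal class shares, described with the ages.

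Nlrc5, the transactivator, differed most between the ages. It stood at 3.54 CPM in both unsorted pnd7 libraries, with intervals of 2.70 to 4.57 in air and 2.61 to 4.69 in hyperoxia, and at 33.2 CPM (30.4 to 36.3) and 32.5 CPM (29.8 to 35.3) at pnd60. Sorted cells had 1.02 CPM (0.438 to 2.00), from 8 counts. H2-K1 was at 1.38, 2.87, 4.70, 4.88 and 13.3 CPM, and its highest value was that of hyperoxia at pnd60.

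The cell classes that carried B2m were mainly leukocytes and endothelium. At pnd60 nonclassical monocyte-like cells, the patrolling monocytes of the vessel wall, were highest, with 4638 CPM (4421 to 4862) in air and 5123 CPM (4931 to 5322) in hyperoxia, and no other class reached their range. The next ranks were general capillary-like cells (3006 and 3468 CPM), aerocyte-like cells of the gas-exchange capillaries (2777 and 3170 CPM), classical monocyte-like cells (2912 and 2853 CPM) and NK cell-like cells (2760 and 2956 CPM), each of which overlapped the next in range. T cell-like cells had 2345 and 2336 CPM, B cell-like cells 1844 and 1797 CPM, and alveolar macrophage-like cells 1507 and 1712 CPM. Type I-like cells, which line the alveoli, had 1178 and 1232 CPM and alveolar fibroblast-like cells 900 and 889 CPM. The lowest were type II-like cells, which make surfactant, with 380 and 369 CPM, and ciliated-like cells with 128 and 171 CPM, neither of which overlapped another class.

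At pnd7 the order of the classes was not the same. Nonclassical monocyte-like cells were again highest, at 2934 CPM in air and 3195 CPM in hyperoxia. Alveolar macrophage-like cells (1141 and 1407 CPM) and T cell-like cells (1092 and 1366 CPM) followed and overlapped. General capillary-like cells had 370 CPM (333 to 410) in air and 648 CPM (600 to 698) in hyperoxia, which put them at rank 8 of 16 classes, against rank 2 of 20 at pnd60. Type II-like cells were lowest, at 90.4 CPM (78.9 to 103) and 112 CPM (98.5 to 127). The erythroid-like barcodes, whose clusters were led by hemoglobin genes, held 283 CPM in air and 211 CPM in hyperoxia. B2m counts in classes at or below that level cannot be told apart from RNA shed by other cells. In air those were the type II-like, alveolar fibroblast-like, myofibroblast or smooth muscle-like, pericyte-like, club-like and mesothelial-like classes, and in hyperoxia the type II-like and the myofibroblast or smooth muscle-like classes. At pnd60 only 9 and 2 erythroid-like barcodes were kept in air and hyperoxia, under the limit of 20. They held 637 and 915 CPM from 25 and 7 counts, so shed RNA was not gauged at that age. The type II-like and ciliated-like levels at pnd60 lay below those values.

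**Figure D2:**
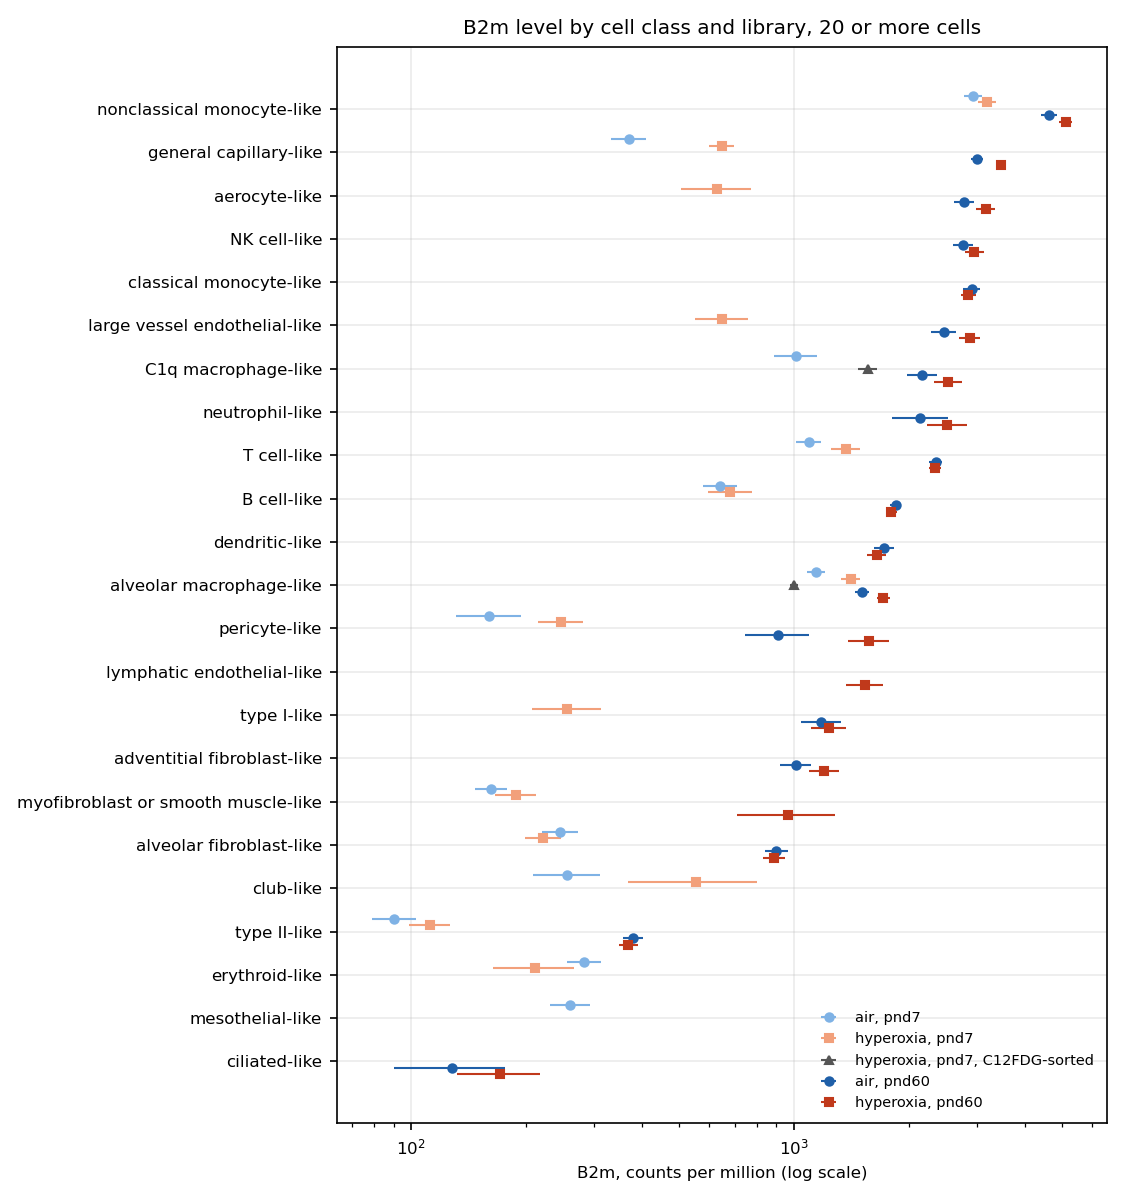
B2m in CPM (logarithmic axis) by cell class and library, for classes with at least 20 cells in the library; points are libraries and bars are exact 95% Poisson intervals. The pnd60 points lie above the pnd7 points in every class measured at both ages, and the gap is wider in general capillary-like cells (370 and 648 CPM against 3006 and 3468 CPM) than in alveolar macrophage-like cells (1141 and 1407 CPM against 1507 and 1712 CPM).

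Psmb9 and Nlrc5 had other leading classes. At pnd60 Psmb9 was highest in dendritic-like cells, which present antigen to T cells, with 165 CPM (136 to 199) in air and 179 CPM (150 to 211) in hyperoxia. General capillary-like cells followed with 94.9 and 95.7 CPM and overlapped several leukocyte classes. At pnd7 dendritic-like cells (8 in air and 7 in hyperoxia) and NK cell-like cells (3 and 1) were under the limit of 20 and were not ranked. Whether the leading classes differed between the ages was therefore not tested. Among the classes ranked at pnd7, Psmb9 was highest in B cell-like cells (145 and 105 CPM) and T cell-like cells (117 and 140 CPM), with intervals that overlapped. Psmb9 was low in type II-like cells, with 8.03 and 7.99 CPM at pnd7 and 10.1 and 15.7 CPM at pnd60, and in myofibroblast or smooth muscle-like cells, with 3 and 2 counts at pnd7. Nlrc5 was highest in lymphocyte classes at pnd60, at 109 CPM (90.9 to 130) and 111 CPM (94.7 to 130) in T cell-like cells and 86.4 and 120 CPM in NK cell-like cells. T cell-like cells also had the highest Nlrc5 of the classes ranked at pnd7, with 33.3 and 32.2 CPM from 20 and 12 counts. In type I-like, ciliated-like, club-like and myofibroblast or smooth muscle-like cells Nlrc5 had 0 counts in every library with at least 20 such cells. That allows up to 3 counts in each class and library.

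**Figure D3:**
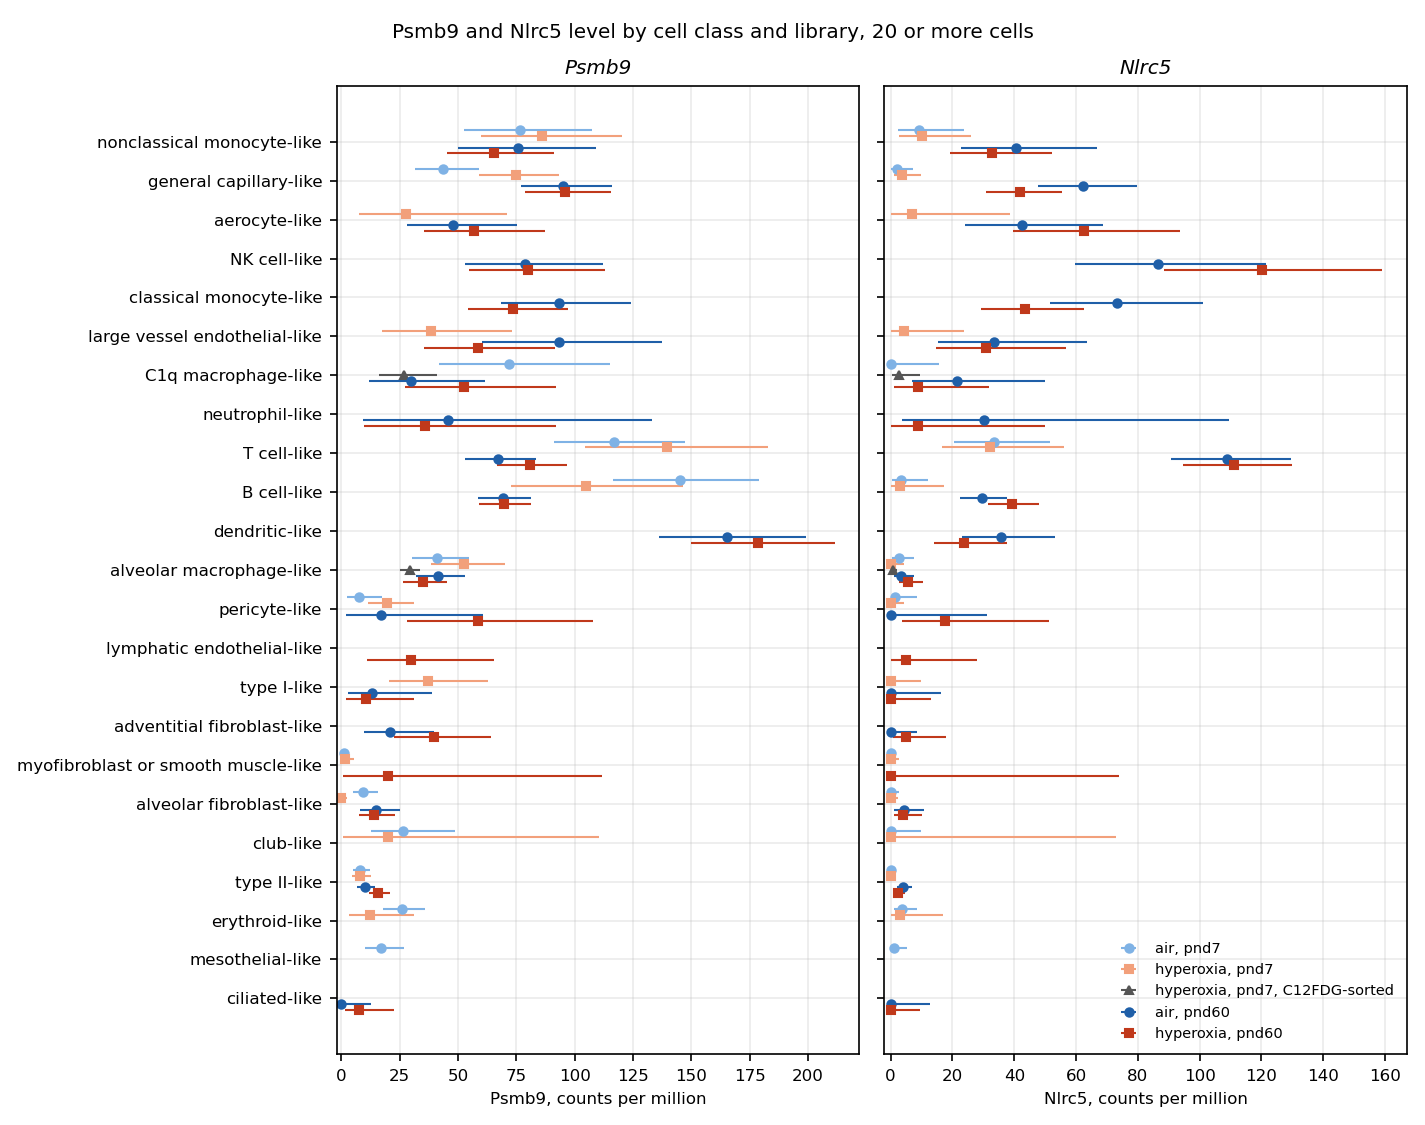
Psmb9 and Nlrc5 in CPM by cell class and library, for classes with at least 20 cells; points are libraries and bars are exact 95% Poisson intervals. Psmb9 is highest in dendritic-like cells at pnd60 (165 and 179 CPM), and Nlrc5 in T cell-like (109 and 111 CPM) and NK cell-like cells (86.4 and 120 CPM) at pnd60.

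Across the 67 combinations of library and class with at least 20 cells, B2m and Psmb9 had a Pearson r of 0.73 and B2m and Nlrc5 an r of 0.72 on log2 values, which is a description, since the points share libraries, depths and ages. Among the 10 genes outside the lists whose levels were most like the average of the members over those points were Trim30a (0.87), Mndal (0.86), Il2rg (0.85), Sp110 (0.85), Zc3hav1 (0.85), Sp100 (0.85), Dtx3l (0.84), Gm8995 (0.83) and Tmem229b (0.83). Il2rg is the common cytokine receptor chain of lymphocytes, Zc3hav1 an antiviral protein that binds RNA, and Trim30a, Mndal, Sp100, Sp110 and Dtx3l are interferon-inducible genes. Each member's own value contributes to the average it was compared with, and B2m had an r of 0.89, Psmb9 0.86, Nlrc5 0.89 and H2-K1 0.83.

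The first question of the design is how hyperoxia at birth left the lung days later, at pnd7. B2m was higher in the hyperoxia library by 0.22 on the log2 scale (0.17 to 0.27), and Psmb9 by 0.24 (0.07 to 0.41). Nlrc5 was level, at 0.00 (-0.58 to 0.57). Of the 3 members with at least 100 counts in the libraries together, 0 were at least 2-fold higher or lower, and over all 12591 genes with as many counts 0.183% were 2-fold higher and 0.802% 2-fold lower. The B2m ratio was above that of 87.3% of those genes, whose median was -0.02. H2-K1 had 62 counts and a log2 ratio of 1.06 (0.28 to 1.87).

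Within classes, B2m was higher in hyperoxia at pnd7 beyond counting error in 7 of 11 classes and lower in 1, the erythroid-like class, where all genes had a median of -0.60. The log2 ratio was 0.81 (0.62 to 0.99) in general capillary-like cells, from 365 counts in 121 cells and 685 counts in 131 cells, and 0.62 (0.28 to 0.97) in pericyte-like cells. It was 0.32 in T cell-like, 0.31 in type II-like, 0.30 in alveolar macrophage-like and 0.12 in nonclassical monocyte-like cells. Only the club-like class reached 2-fold, at 1.11 (0.45 to 1.73) from 28 counts against 97. Its cells were mostly of different clusters. A cluster led by Scgb1a1 and Reg3g held 112 air and 2 hyperoxia cells, and one led by Bpifa1 and Scgb3a2 held 26 and 20. Over all pairs of a gene and a class tested, 0.403% were 2-fold higher and 1.93% 2-fold lower. The share of all pairs that differed beyond counting error is not given here, and a gene with as many counts as B2m passes that limit at small ratios. B2m lay above the class median over all genes in 10 of 11 classes. The pericyte-like cells of the hyperoxia library included 46 cells of a cluster led by Itm2a and Ndufa4l2 that the air library lacked. In air the type II-like, pericyte-like and club-like cells lay below the B2m level of the erythroid-like barcodes. Their ratios thus rest on air levels that cannot be told apart from shed RNA. Psmb9 was also higher in general capillary-like cells, at 74.7 against 43.6 CPM, a log2 ratio of 0.78 (0.22 to 1.35). Of the 3 classes with 100 Psmb9 counts that was the only 1 beyond counting error. T cell-like cells had 0.26 and B cell-like cells -0.47.

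At pnd60, after recovery, the 2 libraries were closer. B2m differed by 0.11 (0.09 to 0.13), Psmb9 by 0.04 (-0.10 to 0.18) and Nlrc5 by -0.03 (-0.21 to 0.15). H2-K1 was the 1 member of 4 that was at least 2-fold higher in hyperoxia, at 1.45 (1.06 to 1.85), and 0 were 2-fold lower, where 0.271% of all genes tested were 2-fold higher and 0.248% 2-fold lower. Of its 220 counts in hyperoxia 70 lay in B cell-like cells, at 30.4 CPM (23.7 to 38.4), against 12 counts and 5.60 CPM (2.89 to 9.78) in air. T cell-like cells held 21 counts against 14, which is 14.6 against 12.0 CPM. The further copies of H2-K1 had 19 counts in air and 23 in hyperoxia, and with them added the log2 ratio was 1.25.

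Within classes at pnd60, B2m was higher in hyperoxia beyond counting error in 8 of 18 classes and lower in 0, and 0 reached 2-fold, where 0.305% of all pairs of a gene and a class were 2-fold higher and 0.328% 2-fold lower. Pericyte-like cells had 908 CPM (745 to 1096) in air and 1569 CPM (1386 to 1768) in hyperoxia, a log2 ratio of 0.79 (0.46 to 1.12) from 35 and 38 cells. The other 7 classes were endothelial, macrophage, monocyte or adventitial, and their ratios ran from 0.14 in nonclassical monocyte-like to 0.25 in adventitial fibroblast-like cells, with 0.21 in general capillary-like cells. B cell-like cells, at -0.04, and T cell-like cells, at -0.01, had intervals that included 0. The share of all pairs that differed beyond counting error is not given at this age either. B2m lay above the class median over all genes in 12 of 18 classes. Nlrc5 had 100 counts in 3 classes. In general capillary-like cells it was at 41.8 CPM in hyperoxia against 62.3 CPM in air from 48 and 63 counts, a log2 ratio of -0.58 (-1.15 to -0.01). With classes set by each cell's own markers that ratio was -0.52 (-1.06 to 0.01), an interval that includes 0. B cell-like cells had 0.41 (-0.07 to 0.90) and T cell-like cells 0.03 (-0.32 to 0.38).

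The comparison of ages gave larger differences than hyperoxia over air for B2m, Psmb9 and Nlrc5 in whole libraries. In air, pnd60 over pnd7, the log2 ratio was 1.86 (1.83 to 1.90) for B2m, 0.61 (0.45 to 0.77) for Psmb9 and 3.23 (2.84 to 3.64) for Nlrc5. In hyperoxia it was 1.75 (1.72 to 1.79) for B2m, 0.41 (0.25 to 0.56) for Psmb9 and 3.20 (2.77 to 3.66) for Nlrc5, and H2-K1 had 2.21 (1.72 to 2.74). At least 2-fold higher at pnd60 were 2 of 3 members in air and 3 of 4 in hyperoxia, and 0 were 2-fold lower. The background was large here, since 15.1% of genes in air and 19.1% in hyperoxia were 2-fold higher and 9.35% and 9.49% 2-fold lower. Nlrc5 stood above 99.4% and 99.0% of genes and B2m above 96.5% and 94.1%, while Psmb9 stood above 69.9% and 56.1%. The medians of all genes were 0.23 and 0.29, and relative to them B2m was at 1.64 and 1.47 and Psmb9 at 0.38 and 0.12. Mice, libraries and dissociations of the 2 ages cannot be told apart from age.

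The cell mixture also differed with age, B cell-like cells going from 120 of 2308 kept cells to 1238 of 4397 in air, so each gene was also compared with every class given the same share of counts in both libraries. B2m then stood at 603 CPM at pnd7 and 1517 CPM at pnd60 in air, a log2 ratio of 1.33 (1.28 to 1.38) over 9 classes, and at 645 and 1641 CPM in hyperoxia, 1.35 (1.30 to 1.40) over 12. Nlrc5 had 2.46 (1.92 to 3.00) in air and 2.58 (1.93 to 3.23) in hyperoxia. Psmb9 had -0.29 (-0.50 to -0.07) in air, 41.1 CPM at pnd60 against 50.1 CPM, and -0.06 (-0.30 to 0.18) in hyperoxia. B2m and Nlrc5 thus kept most of their difference, whereas the direction of Psmb9 turned in air and its interval included 0 in hyperoxia. For hyperoxia over air, the same weighting gave B2m 0.26 (0.20 to 0.31) at pnd7 and 0.08 (0.06 to 0.11) at pnd60.

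**Figure D4:**
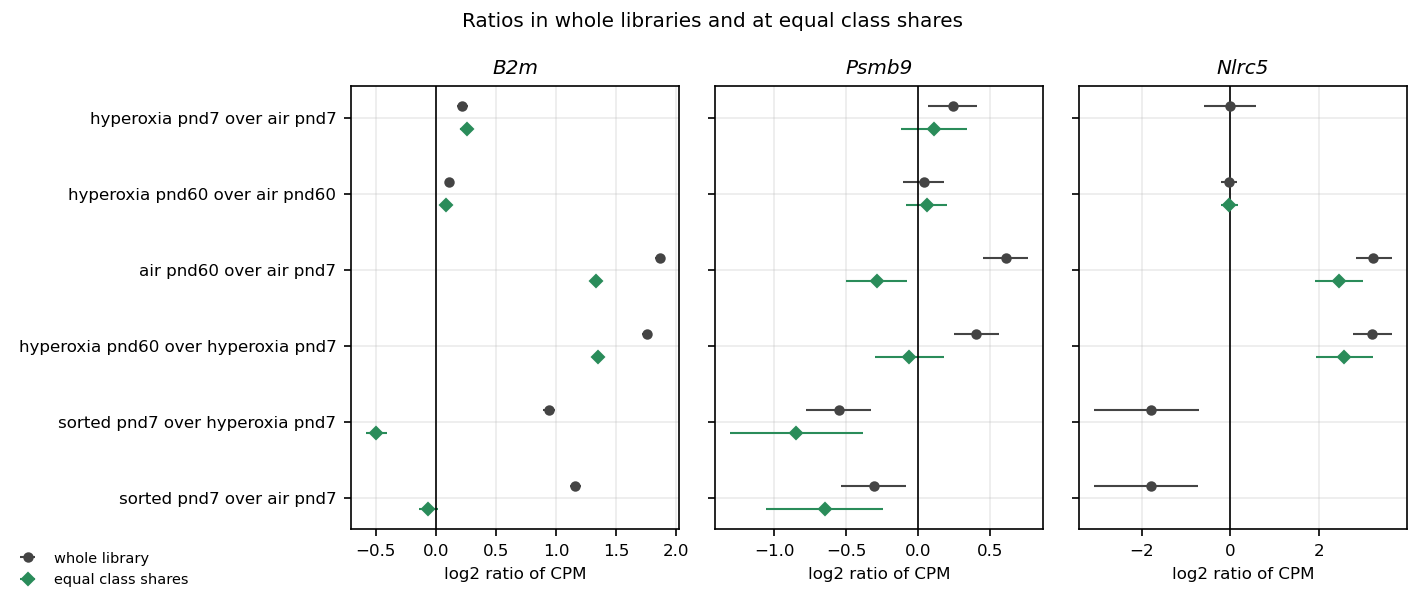
Log2 ratios of B2m, Psmb9 and Nlrc5 for the comparisons, from whole libraries and with equal class shares in both libraries; bars are 95% intervals for counting error. B2m and Nlrc5 stay above 0 for age in both forms (B2m 1.86 and 1.33 in air), while Psmb9 in air goes from 0.61 to -0.29, and B2m in sorted over unsorted hyperoxia cells goes from 0.94 to -0.49. That last value rests on 1 class, the alveolar macrophage-like cells.

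Within classes, B2m was higher at pnd60 in 9 of 9 classes in air and in 12 of 12 in hyperoxia, at least 2-fold in 7 and 9 of them. Over all pairs of a gene and a class, 13.1% in air and 15.8% in hyperoxia were 2-fold higher, and 9.01% and 11.3% 2-fold lower. General capillary-like cells, which line most alveolar capillaries, had a ratio of 3.02 (2.86 to 3.18) in air and 2.42 (2.30 to 2.54) in hyperoxia. Pericyte-like cells had 2.51 and 2.67, and were the highest of the classes in hyperoxia. Alveolar fibroblast-like cells had 1.88 and 2.01 and type II-like cells 2.07 and 1.72. Type I-like, aerocyte-like and large vessel endothelial-like cells, measured in hyperoxia only, had 2.27, 2.33 and 2.15. B cell-like cells had 1.52 and 1.40, T cell-like cells 1.10 and 0.77, and nonclassical monocyte-like cells 0.66 and 0.68. Alveolar macrophage-like cells had the smallest ratios, 0.40 (0.30 to 0.50) and 0.28 (0.19 to 0.38). The type II-like, alveolar fibroblast-like and pericyte-like ratios rest on pnd7 levels below or near those of the erythroid-like barcodes. At pnd60 too few such barcodes were kept to gauge shed RNA, so its part in the pnd60 levels was not tested.

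Which cells make up a class differed between the ages. General capillary-like cells of pnd60 lay in a cluster led by Sema3g and Sema3c, and those of pnd7 in a cluster led by Pcdh17 and Cxcl12. Type II-like cells were likewise in separate clusters at the ages, while 49, 51, 35 and 37 pericyte-like cells of air pnd7, hyperoxia pnd7, air pnd60 and hyperoxia pnd60 shared 1 cluster led by Postn and Cox4i2. Most alveolar macrophage-like cells of the unsorted libraries shared 1 cluster led by Chil3 and Krt79. B cell-like cells at pnd7 lay mostly in a cluster led by Igha_1 and Jchain, which held 85 of 120 in air and 47 of 66 in hyperoxia, and at pnd60 mostly in clusters led by Ighm_1 or Ms4a1.

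Psmb9 did not go the same way with age in all classes. In air it was at 145 CPM at pnd7 and 69.1 CPM at pnd60 in B cell-like cells, a log2 ratio of -1.07 (-1.46 to -0.68), and at 117 and 67.0 CPM in T cell-like cells, -0.80 (-1.29 to -0.31). In general capillary-like cells it was at 43.6 and 94.9 CPM, 1.12 (0.59 to 1.67), and in alveolar macrophage-like cells at 41.2 and 41.4 CPM, 0.01 (-0.56 to 0.58). In hyperoxia the ratios were -0.59 (-1.13 to -0.01) in B cell-like cells, -0.79 (-1.27 to -0.29) in T cell-like cells and -0.60 (-1.19 to -0.0032) in alveolar macrophage-like cells, and 0.36 (-0.07 to 0.79) in general capillary-like cells. Lymphocyte classes were thus lower and capillary cells in air higher, beyond counting error. Only T cell-like cells held 100 Nlrc5 counts at both ages together, and their ratios were 1.71 (1.02 to 2.47) in air and 1.79 (0.94 to 2.77) in hyperoxia. B cell-like cells had 2 and 1 Nlrc5 counts at pnd7 and 63 and 90 at pnd60, and general capillary-like cells 2 and 4 against 63 and 48.

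**Figure D5:**
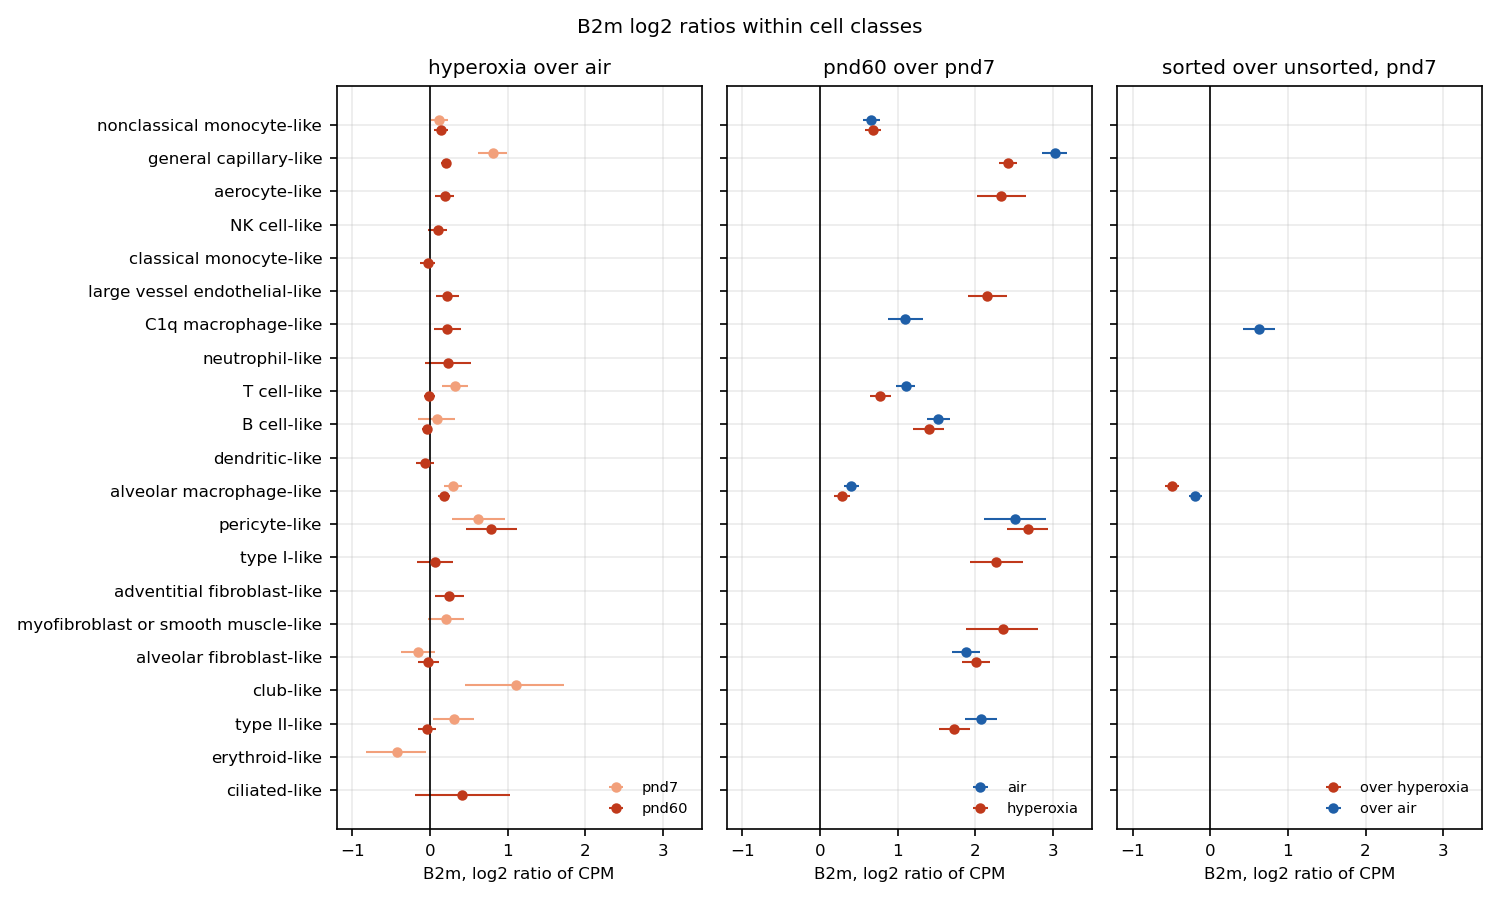
Log2 ratio of B2m within cell classes, for hyperoxia over air, pnd60 over pnd7 and sorted over unsorted cells; each point is 1 comparison in 1 class and bars are 95% intervals for counting error. The ratios with age lie between 0.28 and 3.02, those for hyperoxia mostly between -0.15 and 0.81, and in alveolar macrophage-like cells the sorted cells lie below the unsorted ones (-0.49 and -0.19).

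The sorted library was set against each unsorted library at pnd7, to ask what distinguished C12FDG-positive cells. The 2 comparisons share the sorted library. B2m was higher by 0.94 (0.90 to 0.99) than in hyperoxia and by 1.16 (1.12 to 1.21) than in air. Psmb9 was at -0.55 (-0.78 to -0.32) and -0.31 (-0.54 to -0.08), and Nlrc5 at -1.80 (-3.09 to -0.71) and -1.80 (-3.08 to -0.73). The sorted library held 0 T cell-like cells, the class with the highest Nlrc5 of those ranked at pnd7. Unsorted alveolar macrophage-like cells at pnd7 had 0 to 2.63 CPM of Nlrc5, from 3 counts. In 0 classes did sorted and unsorted cells hold 100 Nlrc5 counts together, so a difference within a class was not tested. Among members with 100 counts, 0 of 2 were 2-fold higher against hyperoxia and 1 of 2, B2m, against air, where 8.17% and 7.81% of all genes were, and 0 of 2 were 2-fold lower, where 36.4% and 38.5% were. All genes had medians of -0.55 and -0.59, so relative to them B2m was at 1.49 and 1.75, while Psmb9 was at -0.01 and 0.28. The sign of Psmb9 therefore depended on the scaling: against air it was 0.23 with TMM factors and 0.41 with median of ratios size factors, and against hyperoxia 0.15 with the latter.

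Within the class that made up most of the sorted library, B2m was not higher in sorted cells. Alveolar macrophage-like cells had 999 CPM (975 to 1024) in the sorted library, 1407 CPM (1329 to 1488) in hyperoxia and 1141 CPM (1080 to 1205) in air. The log2 ratio was -0.49 (-0.58 to -0.40) to hyperoxia, where the class median over all genes was -0.29, and -0.19 (-0.28 to -0.10) to air, where it was -0.30, so that B2m was above the class median against air and below it against hyperoxia. Psmb9 in the same cells was at 29.3 CPM sorted, 52.7 CPM in hyperoxia and 41.2 CPM in air. Its ratio was -0.85 (-1.32 to -0.35) to hyperoxia and -0.49 to air, the latter not beyond counting error, beside the class medians of -0.29 and -0.30. Macrophage-like cells with C1q genes had 1558 CPM (1470 to 1650) of B2m in 48 sorted cells. In 20 air cells they had 1012 CPM (887 to 1148), a ratio of 0.62 (0.42 to 0.83). The hyperoxia library held 19 such cells, under the limit of 20, so a difference from them was not tested. Those cells held 5.90% of that library's B2m counts in 1.76% of its counts, a level no lower than the sorted one. The ratio to air therefore cannot separate sorting from hyperoxia. Most sorted alveolar macrophage-like cells, 365 of 411, lay in a cluster led by Hmox1, Slc7a11, Mt1 and Mt2, which held 4 other cells, so the sorted and the unsorted cells of the class are mostly different clusters.

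The other genes of the pathway were taken from lists of 47 genes. For age, 12 of the 37 with 100 counts were at least 2-fold higher at pnd60, in air and in hyperoxia alike in number, and 1 was 2-fold lower, where 15.1% and 19.1% of all genes tested were 2-fold higher and 9.35% and 9.49% 2-fold lower. For hyperoxia at either age 0 of 36 were 2-fold higher or lower, where 0.183% and 0.802% of all genes at pnd7 and 0.271% and 0.248% at pnd60 were, so that hardly any would be called in a list of that size. Nonclassical class I heavy chains gave 4 of 4 in air and 3 of 4 in hyperoxia, and the rest of the 14 listed had fewer counts. Their median log2 ratios were 1.75 and 1.78, those of 4 class I-like genes outside the H2 region 0.26 and 0.32 and those of 11 processing genes 0.40 and 0.36, beside 0.23 and 0.29 over all genes tested. H2-T24 was at 4.69 CPM at pnd7 and 34.2 CPM at pnd60 in air, a log2 ratio of 2.87 (2.52 to 3.23), and at 3.46 and 35.6 CPM in hyperoxia, 3.36 (2.93 to 3.82). H2-T23, which encodes Qa-1, was at 69.3, 67.8, 56.7, 196 and 202 CPM in air pnd7, hyperoxia pnd7, sorted, air pnd60 and hyperoxia pnd60. In CPM of whole libraries these heavy chains were higher at pnd60 than in either unsorted pnd7 library, as B2m was. Within classes the H2-T23 ratios had medians of 0.67 over 7 classes in air and 0.45 over 8 in hyperoxia, beside 1.52 and 2.08 for B2m. They were lowest in T cell-like cells, with 283 CPM at pnd7 and 268 CPM at pnd60 in air, and 274 and 252 CPM in hyperoxia.

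H2-Q4, a Qa-2 region heavy chain, was at 17.2, 24.9, 12.2, 68.8 and 98.2 CPM in the same order, higher in hyperoxia at both ages, by 0.54 (0.30 to 0.77) at pnd7 and 0.51 (0.40 to 0.63) at pnd60. With equal class shares those ratios were 0.75 (0.46 to 1.05) and 0.47 (0.36 to 0.59). At pnd60 the difference was 0.69 (0.42 to 0.96) in general capillary-like cells, 284 against 176 CPM, 0.89 (0.37 to 1.42) in NK cell-like cells, 233 against 126 CPM, and 0.34 (0.08 to 0.61) in T cell-like cells, 209 against 165 CPM. The heavy chains of the H2 region are closely alike in sequence, so their counts and those of H2-K1 can be split or shared by the counting.

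Among regulators of the class I genes, 7 of 15 in air and 8 of 15 in hyperoxia were at least 2-fold higher at pnd60, with medians of 0.92 and 1.21, and 0 were 2-fold lower, beside the 15.1% and 19.1% of all genes that were 2-fold higher. Stat2, a signal carrier of type I interferon, had ratios of 1.87 (1.65 to 2.10) and 1.79 (1.57 to 2.03), from 12.6 to 46.3 CPM in air and from 14.1 to 48.8 CPM in hyperoxia. With equal class shares Irf1, which acts on class I promoters, had 1.06 (0.88 to 1.24) and 0.93 (0.74 to 1.12). Ifng, the interferon of T and NK cells, was at 5.56 CPM in air and 8.04 CPM in hyperoxia at pnd60, a ratio of 0.53 (0.12 to 0.95). That was the highest ratio among the 36 other pathway genes tested there. Ifng was the only 1 of 15 regulators above 0 beyond counting error, and the median of the 15 was 0.04. The share of all genes above 0 beyond counting error is not given here, nor is the Ifng ratio with equal class shares. In sorted cells 3 of 14 regulators were at least 2-fold lower than in either unsorted library, where 36.4% and 38.5% of all genes were, and the regulators' medians of -0.28 and -0.30 lay above those of all genes, -0.55 and -0.59. Rfx5, a subunit of the X box complex, was at 1.02 CPM against 9.72 CPM in hyperoxia and 10.6 CPM in air.

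Proteasome genes differed among themselves. The third immunoproteasome subunit Psmb10 was at 55.6, 53.2, 72.2, 76.2 and 84.3 CPM and the activator subunit Psme1 at 207, 230, 233, 222 and 236 CPM in the same order of libraries. Within classes the Psme1 ratios with age had medians of -0.24 over 8 classes in air and -0.15 over 12 in hyperoxia. The constitutive subunit Psmb5, which Psmb8 replaces, was at 156 CPM in air and 184 CPM in hyperoxia at pnd7 and at 74.9 and 82.3 CPM at pnd60, log2 ratios of -1.06 (-1.16 to -0.96) and -1.16 (-1.25 to -1.06). Psmb5 was the 1 of 3 constitutive subunits that was at least 2-fold lower with age, where 9.35% of all genes in air and 9.49% in hyperoxia were. With equal class shares Psmb5 had -1.05 (-1.19 to -0.91) and -1.25 (-1.39 to -1.10), while Psmb10 had -0.08 (-0.25 to 0.08) in air and 0.25 (0.06 to 0.44) in hyperoxia. In sorted alveolar macrophage-like cells Psmb5 was at 291 CPM against 132 CPM in hyperoxia, a ratio of 1.14 (0.87 to 1.41). The share of all genes 2-fold higher within this class is not given here. In the same cells the constitutive subunit Psmb7 was at 97.2 against 87.1 CPM, with intervals that overlapped. Psmb10 was at 74.2 against 83.6 CPM, a ratio of -0.17 that was not beyond counting error. A replacement of one kind of subunit by the other was not tested.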

How the data were processed

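Single-cell RNA sequencing of mouse lung with the 10x Chromium system gave 5 libraries. The authors deposited raw counts of molecules per feature and barcode, with no normalization. The submitters' processing notes name Cell Ranger, Seurat 3.2.1 and mm10. No authors' comparison or cell annotation was used.

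The study's limits were applied: more than 700 and fewer than 8000 genes, and less than 5% of counts from mitochondrial features (2 ribosomal RNAs). Counts were summed per library or cell class and given as CPM with exact Poisson intervals, and log2 ratios with exact binomial intervals. PCR copies are removed by the molecular identifiers, and intervals cover counting error only. Genes with at least 100 counts in the compared groups together counted as tested, and at least 2-fold as higher or lower. Classes of under 20 cells were not used. Cells were clustered without integration (2996 variable genes, 50 components, 15 neighbours, Leiden resolution 2) into 58 clusters, named from fixed marker lists of 25 classes. Scrublet called between 1 and 156 doublets per library, hardly any at pnd7, and they were left in except in an alternative. With equal class shares, each class was weighted by its mean share of the counts of both libraries.

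Named were the 9 members, up to 3 highest and 3 lowest genes of the other pathway lists (47 genes) with 100 counts, and the 10 genes outside the lists most correlated with the mean member profile on log2(CPM + 10). H2-T23, Irf1, Psmb10, Psme1, H2-Aa and H2-Ab1 were named outside that rule after their values were seen. Some genes that the rule names are not reported here. The members and lists were chosen with earlier results of these data known. The ratio and interval steps were tested on simulated data. Clustering used scanpy 1.11.5 and leidenalg 0.10.2, the other steps Python 3.11.15 with scipy 1.17.1, numpy 2.4.6, matplotlib 3.10.9 and pandas 2.3.3, and TMM factors edgeR 4.0.16. Alternatives covered the cell filter, scaling, doublets, thinning, further copies of genes and classing. Leaving out erythroid-like cells was chosen after seeing the data.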

Additional observations from a re-analysis of the deposited data

How the results depend on the processing

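No paired analysis was possible because every condition was measured in a single library, and conditions could not be tested. Counts limited the members to B2m, Psmb9, Nlrc5 and, in part, H2-K1.

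The log2 ratio of the members' summed CPM was 0.22 and 0.11 for hyperoxia over air at pnd7 and pnd60, 1.82 and 1.71 for pnd60 over pnd7 in air and hyperoxia, and 0.86 and 1.09 for sorted cells over hyperoxia and air. With all barcodes it was 0.16, 2.51, 2.44, 1.66 and 1.82, in that order without hyperoxia over air at pnd60. Totals without hemoglobin and mitochondrial genes gave 1.78 for age in air and 1.04 for sorted cells over air, and leaving out erythroid-like cells 1.78 for age in air. TMM factors gave 1.59 and 1.47 for age and 1.38 and 1.62 for sorted cells, and median of ratios factors 0.0845 for hyperoxia at pnd60, 1.62 and 1.46 for age and 1.57 and 1.81 for sorted cells. Thinning gave 0.46, 0.0856, 1.99, 1.61, 0.56 and 1.02 in the order above, and the mean of CPM per cell 0.36 for hyperoxia at pnd7, 1.93 and 1.66 for age and 0.59 and 0.95 for sorted cells.

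With equal class shares the ratios were 0.25, 0.09, 1.27, 1.30, -0.50 and -0.08. For sorted cells they rest on 1 class over hyperoxia and 2 classes over air. Resolution 1 gave 0.33 for hyperoxia at pnd7 and 1.20 for age in hyperoxia, classing by each cell's own markers 1.32 and 1.21 for age, and weighting each class alike 0.14 for hyperoxia at pnd60, 1.15 and 1.37 for age and 0.21 for sorted cells over air, which turned its direction. Psmb9 turned its direction in sorted cells with all barcodes (0.27 over hyperoxia, 0.44 over air), with median of ratios factors (0.15 and 0.41) and, over air, with TMM factors (0.23). B2m with each class weighted alike was 0.25 for sorted cells over air, against -0.06. The causes were not tested. Psmb9 for hyperoxia at pnd60 and Nlrc5 for hyperoxia at pnd7, whose intervals included 0, also changed sign under some alternatives. Between whole libraries and equal class shares, Psmb9 for age went from 0.61 to -0.29 in air and from 0.41 to -0.06 in hyperoxia.

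The percentages of all genes that were 2-fold higher and lower depended on the count minimum. With 10 counts they were 1.83 and 3.68 for hyperoxia at pnd7 and 2.58 and 1.74 at pnd60. With 1 count they were 9.05 and 9.20 at pnd7, 7.94 and 8.74 at pnd60, 15.7 and 16.9 lower with age in air and hyperoxia, and 18.6 and 21.9 higher in sorted cells over hyperoxia and air.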
